A study of Mus musculus with 2 samples.

Results

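The RGK GTPases Rem1, Rem2, Rrad and Gem and the calcium channel beta subunits Cacnb1, Cacnb2, Cacnb3 and Cacnb4 were followed in cultured mouse hippocampal cells with and without tetrodotoxin (TTX), a toxin that blocks voltage-gated sodium channels and thereby action potentials. The members were all probes that carried one of these 8 gene names and were no control spots. They came to 11 of 55681 probes, 5 for the RGK genes and 6 for the beta subunits. The 8 genes were among 22146 genes on the array that had a symbol in the RefSeq table used for names, and 5 of the 8 were among the 14016 measured on both arrays. Total RNA was labelled with Cy3, and each culture was hybridized to 1 single-colour array with 60-base probes. The TTX culture had TTX for the last 2 days before harvest at 12 days in vitro, with a dose of 2 µM by the design text and of 2 mM by the source name. The control culture was harvested at the same age with no TTX named in its title or source name. Both came from hippocampus of ICR mouse embryos of embryonic day 16.5, grew in medium with 5.5% serum and received 5 µM Ara-C from day 2 against dividing glia. The labels give no number of embryos or dishes per culture. With 1 array per group there was no replicate check and no test between the conditions, and precision is limited by having 2 arrays.

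RGK proteins are Ras-related GTPases without the usual membrane lipid anchor. They bind the beta subunits of high-voltage-activated calcium channels and strongly reduce calcium current when they are abundant. The beta subunits are cytosolic proteins that attach to the pore-forming alpha1 subunit, help it to reach the surface and tune its gating. Rem2 is the RGK member best known from neurons, where its transcription responds to activity and calcium entry and where it acts on dendrite branching and synapse formation. Gem is also known as an inducible gene, while Rrad and Rem1 are best known from muscle and heart.

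Of the 8 genes only Rem2 differed by the 2-fold size rule, and it was far lower in the TTX culture. Gem and all 4 beta subunits were measured on both arrays and differed by less than 2-fold, while Rem1 and Rrad were not well above background on either array. Among the beta subunits, Cacnb1 and Cacnb2 were lower by about the same amount, Cacnb4 was slightly lower and Cacnb3 slightly higher.

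The probes that carry these readings are shown by their first 30 of 60 bases, 5′ to 3′, because the readings below come from them. They are the only probe of Rem2, the measured probe of Gem and the measured probes of the 3 beta subunits whose differences were farthest from 0. All letters are in lower case because no motif is marked.
Rem2: cggaaagacacttcaaaaactagaaccgaa
Gem: cccatcctttgggttgcttcttgtatgcca
Cacnb1: ttggaagatgcctgcgagcacctggctgag
Cacnb2, brighter probe: tcaaaagctgtttgggtagctgccatctca
Cacnb2, probe across an intron: aacagagagccaagcaagggaaattctatt
Cacnb3: cttagcatctggtgagactggggaactggg

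In mm9, the build named in the file headers, the Rem2 probe lies on the plus strand at chr14:55098859-55098918 and carries the accession of the Rem2 transcript. The measured Gem probe lies on the plus strand at chr4:11641692-11641751 and the Cacnb3 probe on the plus strand at chr15:98474610-98474669. The Cacnb1 probe lies on the minus strand at chr11:97866536-97866595 and the Cacnb4 probe on the minus strand at chr2:52289964-52290023. The brighter Cacnb2 probe lies on the plus strand at chr2:14907912-14907971. The other measured Cacnb2 probe covers chr2:14882385-14885558, a span of 3174 bases for 60 bases of probe, so it crosses an intron. The Rem1 probe lies on the plus strand at chr2:152460868-152460927 and the Rrad probe on the minus strand at chr8:107152532-107152591. Exon and UTR annotation of that build was not used here. The Cacnb4 probe holds 7 tandem copies of the 4 bases AAAC, and no other probe of the 8 genes holds more than 1.

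Rem2 had a quantile-normalized signal of 8.89 in the TTX culture, where the spot was not well above background, against 472 in the control culture, where it was. The TTX spot averaged 85.9 per pixel with an SD of 15.1 over 43 pixels and a local background of 60. The control spot averaged 491 per pixel with an SD of 86.0 over 43 pixels and a local background of 59. After the scanner software's background subtraction, these became 8.66 ± 5.12 in TTX and 475 ± 47.7 in control, with the software's own error estimate for 1 spot. The spot was thus not well above background on the TTX array and well above it on the control array. Rem2 had no second probe on the array.

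Because the TTX spot gives no level, the difference is a bound. It was taken against a floor of 19.7, the dimmest TTX signal that still counted as well above background. On that basis Rem2 was at least 24.0-fold lower in TTX, a log2 bound of -4.59. This was the largest such bound among the 707 genes that were above background on the control array alone, for which the median bound was 1.27-fold. A bound of at least 2-fold was reached by 17.4% of those genes, and Rem2 was the only RGK or beta subunit gene among the 707. The 707 were picked as above background on control alone, and under the floor the bound follows the control signal. The rank is thus no separate support for the size of the Rem2 difference. The floor is also no detection limit, since Rasd1 was not well above background in TTX at 20.6. The Rem2 bound leaves out the error of the control spot as well. With normexp background correction and an offset of 50, which shrinks differences of dim spots, the bound was -2.53 on the log2 scale. In a bulk culture, fewer cells that express Rem2 and less Rem2 RNA per cell cannot be told apart.

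The Rem2 reading was then set beside probes that had similar signals in the control culture, a comparison chosen with the value known. It describes the reading and is no separate support for it. Within 1.25-fold of the control signal of Rem2, from 378.0 to 590.5, there were 1972 probes. Rem2 was the only one of them that was not well above background on the TTX array. The other 1971 had TTX signals with a median of 476, and their lowest 2 were 39.99 and 42.2. The median log2 difference of those other probes was 0.01, and 1% of them were below -1.71. The spot of Rem2 lies in row 281 of 384, and measured probes in rows 241 to 288 had a median log2 difference of 0.01. Subtracting the local median for spot position gave a bound of -4.70. The plot of TTX signals shows Rem2 apart from the rest.

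**Figure D1:**
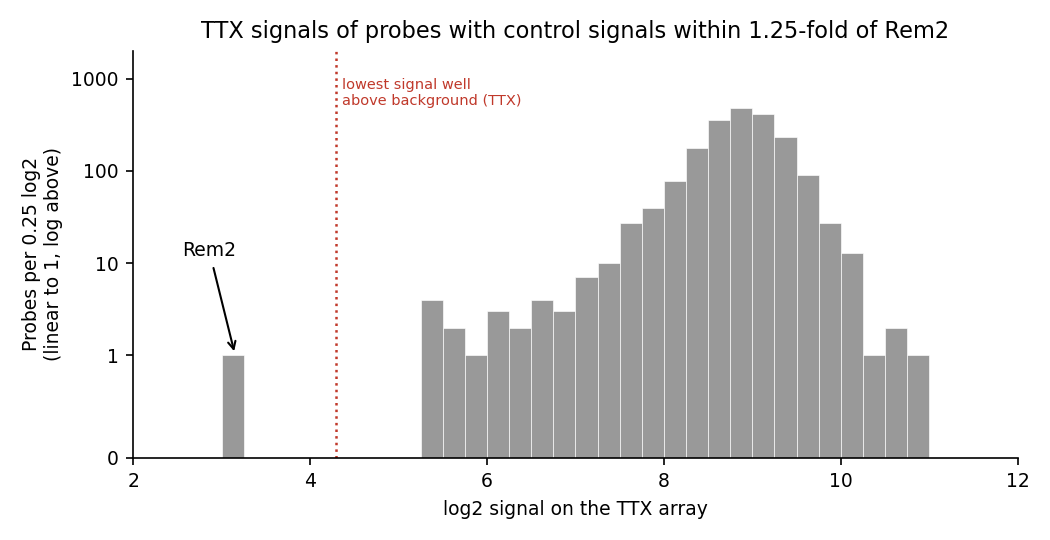
TTX signals (x axis, log2) of the 1972 probes whose control signals lay within 1.25-fold of that of Rem2; bars count probes per 0.25 log2 on an axis that is linear up to 1 and logarithmic above. Rem2 stands alone to the left of the dotted line, the lowest TTX signal well above background (19.7, or 4.30 on the log2 scale), while the next lowest probe had a signal of 39.99.

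The other RGK genes gave weak or no readings. Gem, which inhibits calcium channels, had a signal of 46.5 in TTX and 56.9 in control at its measured probe. The log2 difference was -0.29, with a scanner error of 0.27, so the 95% interval from that error ran from -0.82 to 0.23 and included 0. It was -0.14 with 75th percentile scaling and with normexp, -0.15 with no normalization and -0.09 after correction for spot position. Its second probe, at chr4:11642081-11642140, was not well above background on either array, with signals of 13.8 in TTX and 9.86 in control. When all measured genes were split into 5 equal bins of mean signal, Gem lay in the dimmest bin, where 26.7% of genes had a lower difference. The 3 genes with the difference nearest to that of Gem were Napb, Ccnyl1 and Pcdha9, each at -0.29. With 2 arrays this likeness is a match of 1 difference per gene.

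Rem1 had signals of 9.39 in TTX and 12.7 in control, and Rrad had 14.9 in TTX and 5.59 in control. None of these 4 spots was well above background, so no direction is drawn from them. The Rrad spot lies in row 19, among rows 1 to 48 at the edge of the array. Of 2966 other probes in those rows that were above background on neither array, 4.18% had a difference at least as high as that of Rrad, against 3.04% of such probes over all rows. Markers of muscle, where Rrad and Rem1 are best known, were mostly undetected too. Of 8 muscle markers, Myh6, Actc1, Tnnt2, Myog, Ckm and Des were above background on neither array. The other two, Myh7 and Acta2, were measured and higher in TTX by 1.16 and 0.51 on the log2 scale.

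**Figure D2:**
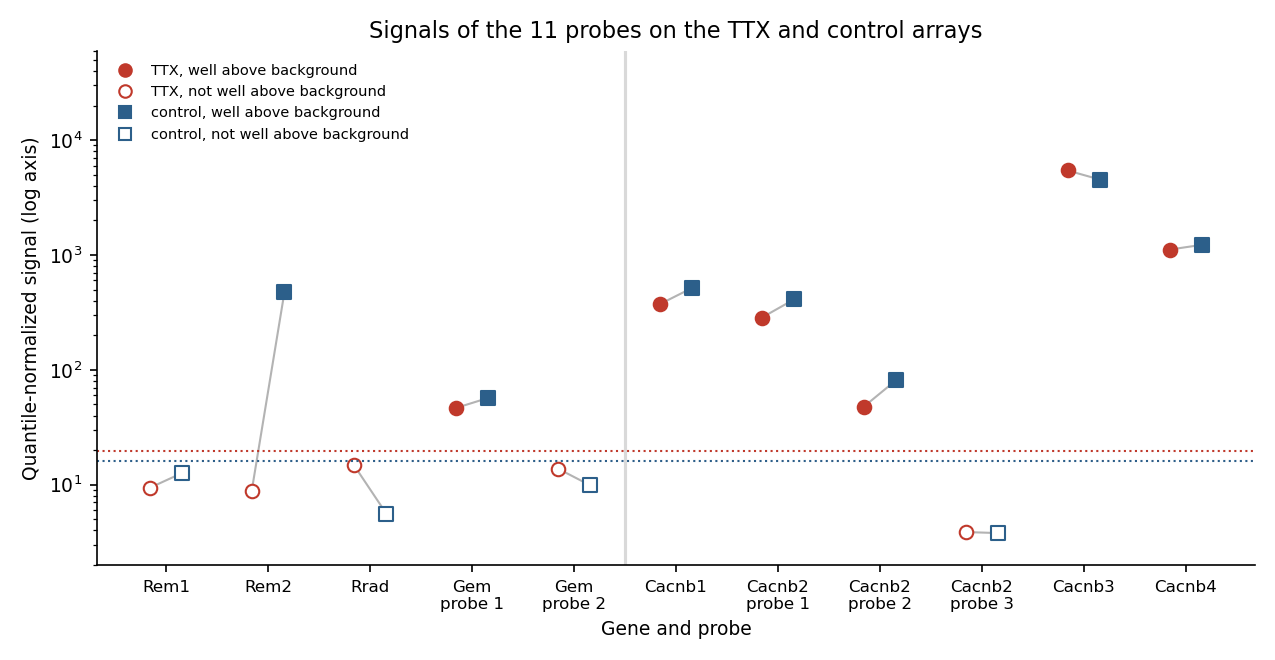
Quantile-normalized signal (y axis, log scale) of each of the 11 probes, TTX as circles on the left and control as squares on the right of each pair; open symbols were not well above background, and dotted lines mark the lowest signal well above background on each array (19.7 in TTX, 15.98 in control). Rem2 is the only probe that is filled on one array and open on the other.

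Probes of all 4 beta subunits gave signals well above background in both cultures. Cacnb1, the subunit of skeletal muscle channels that is also made in brain, had a signal of 372 in TTX and 517 in control. Its log2 difference of -0.47 (scanner error 0.21) means that the signal dropped by 28.0% in TTX. Cacnb2, known from heart and brain, had 284 in TTX and 411 in control at its brighter probe, a log2 difference of -0.53 (scanner error 0.21), so that the signal dropped by 30.9%. Its probe across an intron had 47.6 in TTX and 81.4 in control, with a log2 difference of -0.77. The remaining Cacnb2 probe, for an Ensembl transcript, gave no level, with 3.87 in TTX and 3.79 in control. Both measured Cacnb2 probes thus pointed the same way.

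Cacnb4, the subunit mutated in the lethargic mouse, had a signal of 1114 in TTX and 1226 in control, a log2 difference of -0.14 (scanner error 0.20). Its only probe is the one with 7 tandem copies of AAAC, and whether other RNA binds to it was not tested. Cacnb3, a subunit found with neuronal N-type and L-type channels, had 5440 in TTX and 4527 in control, a log2 difference of 0.27 (scanner error 0.20). The 95% intervals from the scanner error were -0.88 to -0.07 for Cacnb1 and -0.94 to -0.13 for Cacnb2, which lie below 0. They were -0.54 to 0.26 for Cacnb4 and -0.13 to 0.67 for Cacnb3, which include 0. These intervals cover 1 spot on each array and leave out any difference between cultures, RNA samples or labelling. The scanner error was 0.20 to 0.21 for these 4 genes, near its median of 0.20 over all measured genes. Whether an interval includes 0 thus follows the size of the difference. Over replicate spots of other probes, the pooled SD of a difference was 0.13 in the signal bin of Cacnb1 and Cacnb2. It was 0.06 in that of Cacnb3. For Cacnb3 the difference came to 0.13 on 75th percentile scaling, 0.13 when the arrays were left unnormalized and 0.08 on spike-in scaling. The Cacnb4 difference was -0.21, -0.22 and -0.27 under the same settings. Signals of different probes depend on the probe as well as the RNA, so the 4 subunits cannot be ranked by level.

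The members measured on both arrays were read against all genes. None of the 5 members measured on both arrays passed 2-fold, where 3.37% of the 14016 measured genes were at least 2-fold lower and 2.1% at least 2-fold higher in TTX. Of the 4 beta subunits 3 were below 0, with a median of -0.31, against 48.7% of all genes below 0 and a median of 0.01. Cacnb2 ranked 1412th from the lowest and Cacnb1 1670th, so 10.1% and 11.9% of genes were lower than they were. For Cacnb4 and Cacnb3 the shares of lower genes were 33.3% and 76.9%. Among the 5 bins of signal, Cacnb1 and Cacnb2 shared the one above the dimmest, where the 10th to 90th percentiles ran from -0.60 to 0.58 and so took in both genes. In the brightest bin, where Cacnb3 lay, the same range was -0.42 to 0.34 and took it in too.

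**Figure D3:**
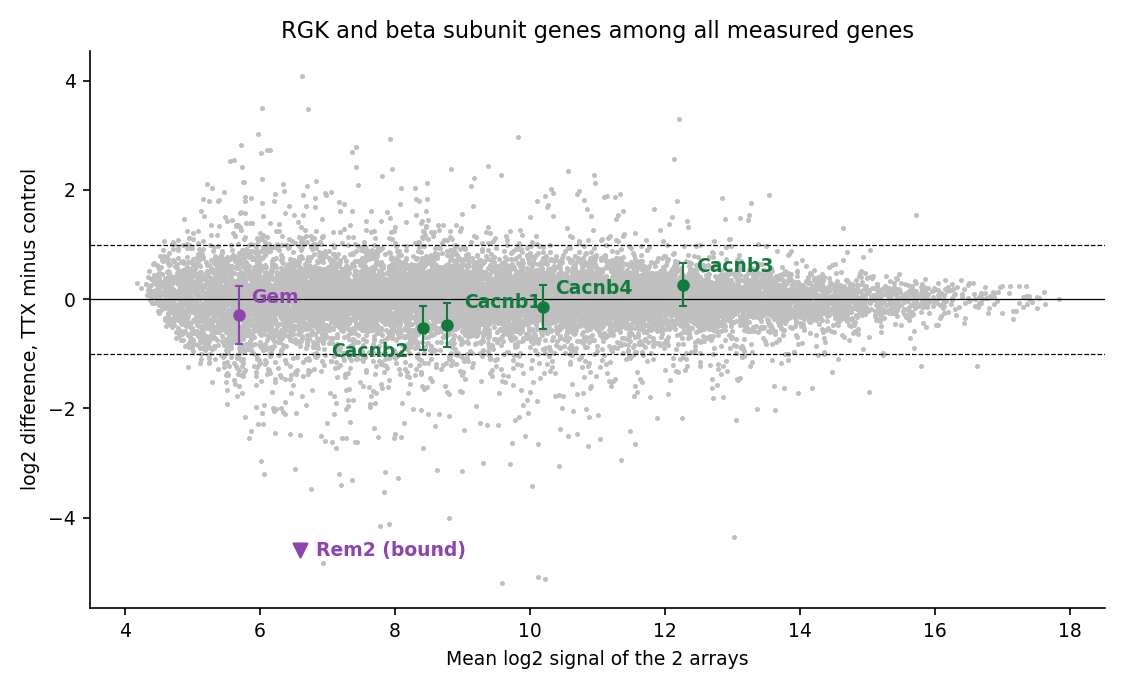
Difference between TTX and control (y axis, log2) against the mean log2 signal of the 2 arrays (x axis) for 14016 measured genes in grey; the members measured on both arrays are labelled, with bars of the 95% interval from the scanner error, and the triangle is the bound for Rem2, placed at the mean of its control signal and the TTX floor. Gem and the beta subunits lie inside the dashed 2-fold lines, and the Rem2 bound lies at -4.59.

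The partners of these proteins were described from lists of the other channel subunits, RGK binding proteins, related GTPases and channel regulators. Counts in these lists stand beside 3.37% of all measured genes at least 2-fold lower and 2.1% at least 2-fold higher. The median of all measured genes was 0.01. Of the 7 pore subunits that bind a beta subunit, 1 was at least 2-fold lower, none at least 2-fold higher, and their median was -0.01, which turned positive without normalization (0.15), on spike-in scaling (0.10), on 75th percentile scaling (0.15) and on correction for spot position (0.06), and was -0.17 with the stricter filter. Cacna1s, the skeletal muscle L-type subunit, had a signal of 111 in TTX and 241 in control, a difference of -1.12. Cacna1b, the N-type subunit, had 119 in TTX and 59.6 in control, a difference of 0.99. The L-type subunits Cacna1d, Cacna1f and Cacna1c were at 0.63, -0.20 and 0.10. The other probe of Cacna1d was at 0.37. Cacna1f was dim, with a signal of 33.6 in TTX and 38.5 in control, and Cacna1c had 55.6 in TTX and 51.9 in control. The 3 T-type pores, which do not need a beta subunit, were Cacna1g at 1.06, with a signal of 2452 in TTX and 1173 in control, Cacna1h at 0.06 and Cacna1i at -0.53. The probes of Cacna1h ran from -0.56 to 0.13, on both sides of 0, and the other probe of Cacna1i was at -0.06. Their median of 0.06 was -0.05 with 75th percentile scaling, -0.11 with spike-in scaling, -0.05 with no normalization and -0.12 with the mean over probes. None of the 4 alpha2delta subunits, the extracellular partners of the channel, passed 2-fold, and their median was 0.14, within a range over the alternatives of 0.03 (spike-in scaling) to 0.26 (stricter filter on dim probes). The highest of them was Cacna2d3 at 0.55, followed by Cacna2d2 at 0.26, and Cacna2d4 was at -0.14.

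Among 19 proteins known to bind RGK GTPases, 18 were measured, with a median of 0.02, which was -0.04 with spike-in scaling and -0.03 with normexp. One, Gmip, a protein that binds Gem, was at least 2-fold higher, with a signal of 212 in TTX and 104 in control (log2 difference 1.03). None was at least 2-fold lower. The kinase subunits Camk2d and Camk2a were at -0.73 and -0.54, and the kinase Rock1 was at 0.50. The probes of Camk2a ran from -0.56 to 0.29 and did not give 1 value. The 14-3-3 gene Sfn was above background on control alone, with 19.9 in TTX and 39.1 in control.

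Rem2 and its relatives belong to the wider Ras family of GTPases, which was looked at next. Of 31 other genes 25 were measured, with 1 at least 2-fold lower, 1 at least 2-fold higher and a median of -0.02, which ran from -0.18 (spike-in scaling) to -0.01 (deposited values) over the alternatives. Rasl11a was the lower one, with a signal of 89.1 in TTX and 515 in control (log2 difference -2.53). Rasl10a was the higher one, with 525 in TTX and 222 in control (log2 difference 1.24). Next in size were Rasl10b (-0.72), Nkiras1, an inhibitor of NF-kappaB signalling (-0.71), and the neuronal Rit2 (0.59). Rasd1, a Ras protein induced by dexamethasone, was above background on control alone, with 20.6 in TTX and 52.9 in control, and was at least 2.57-fold lower in TTX. Rasl12 was also above background on control alone, with 17.4 in TTX and 38.6 in control.

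The list of other calcium channel regulators covers proteins that bind or tune the channels. All 13 genes were measured, 3 were at least 2-fold lower and none at least 2-fold higher, and the median was -0.37, or -0.12 with the stricter filter on dim probes. The list was chosen with earlier results of these data known, so these counts describe the listed genes only. Cabp1, a calmodulin-like sensor that modulates channel gating, had a signal of 1358 in TTX and 4097 in control, a difference of -1.59, with -0.89 at its other probe. Stac, an adaptor of L-type channels, had 35.1 in TTX and 86.0 in control (-1.29), and Akap5, an anchor of protein kinase A at L-type channels, had 476 in TTX and 1105 in control (-1.22). Cbarp, which binds beta subunits and reduces calcium current, lay just short of 2-fold, with 14858 in TTX and 29687 in control at its brightest probe (-0.9986) and a difference of -0.33 at its other probe. Rimbp2, a presynaptic scaffold at calcium channels, was at -0.81 and Ahnak, a large protein that binds beta subunits, at 0.72. The 3 measured probes of Ahnak ran from 0.72 to 1.15, so its brightest probe gave the lowest difference and its highest passed 2-fold.

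**Figure D4:**
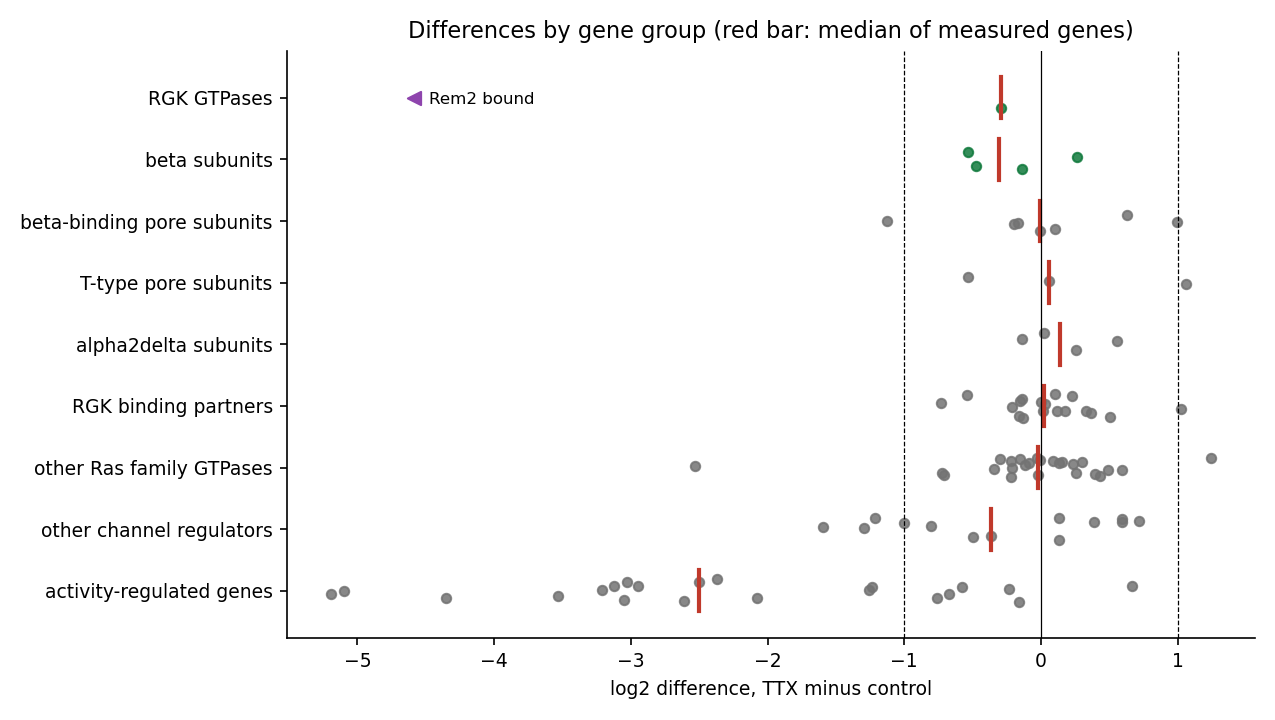
Differences between TTX and control (x axis, log2) for the measured genes of the RGK family, the beta subunits and 7 lists of related genes (rows); the red bar is the median of each row, and dashed lines mark 2-fold. The Rem2 bound (triangle, -4.59) lies to the left of every point in the rows of channel and GTPase genes, of which Rasl11a is the lowest at -2.53.

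The activity-regulated genes show the setting of the Rem2 reading, since Rem2 is known as one. Of 25 such genes 21 were measured, 15 were at least 2-fold lower in TTX and none at least 2-fold higher, with a median of -2.50. Over all measured genes the shares were 3.37% lower and 2.1% higher. The 15 were Arc (-5.19), Nr4a1 (-5.09), Vgf, Npas4, Pcsk1, Nptx2, Egr4, Nr4a2, Rgs4, Fos, Egr1, Bdnf, Fosb, Gadd45b and Dusp1 (-1.23), in order of their differences. Junb (-0.76), Inhba (-0.67) and Plk2 (0.67) came next in size. The list was drawn up with earlier results of these data known, so its counts are no independent support for the Rem2 reading. Among its members that were above background on control alone, Ptgs2 was at least 14.4-fold lower and Nr4a3 at least 6.70-fold lower. Ptgs2 had 6.60 in TTX and 282 in control, and Nr4a3 had 17.2 in TTX and 132 in control. Both TTX signals were under the floor, as was that of Rem2, so these bounds follow the control signals. They do not rank the 3 genes by the size of their differences. Egr3, with 6.92 in TTX and 26.2 in control, had a bound of only 1.33-fold, and Egr2 was above background on neither array.

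Cell type markers were checked in the same cultures. Of 8 neuron markers, all measured, 5 were below 0, with a median of -0.28 and a range of -0.81 to 0.48. Their summed signal was 196817 in TTX and 226477 in control. Of 8 astrocyte markers 7 were measured and 6 were above 0, with a median of 0.24, and their summed signal was 55230 in TTX and 45692 in control. The astrocyte marker Gja1 was above background in TTX alone, with 22.8 in TTX and 15.6 in control. So was the fibroblast marker Lum, with 48.5 in TTX and 11.7 in control and a log2 bound of 1.60. Medians of the measured microglia (5 of 7), oligodendrocyte lineage (5 of 8), endothelial (3 of 5) and fibroblast markers (4 of 5) were 0.37, 0.02, -0.21 and 0.23. The microglia markers were mixed, with 3 above 0 and 2 below and a range of -0.36 to 0.90. Their summed signal was 946.5 in TTX and 989.2 in control. The neuron markers were thus well above background in both cultures. The part of the cell makeup in the readings of Rem2 and the beta subunits was not tested.

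The sequence upstream of the start site was looked at for Rem2, the member that differed, and for Cacnb1, a beta subunit that did not pass 2-fold. RefSeq promoters on GRCm38.p6, each with 250 bases before and 50 after a start site, were given for 6 of the 8 genes, 11 in all. Both strands were searched for the cAMP response element (CRE) TGACGTCA, its core TGACG, the GC box GGGCGG, the TATA box TATAAA and the CArG box, where the core also lies inside every full CRE. The 250 bases before the start site are printed 5′ to 3′ on the strand of the gene, with GC boxes in capitals, where CCGCCC is the box read on the other strand.
Rem2, chr14:54475850-54476099, plus strand: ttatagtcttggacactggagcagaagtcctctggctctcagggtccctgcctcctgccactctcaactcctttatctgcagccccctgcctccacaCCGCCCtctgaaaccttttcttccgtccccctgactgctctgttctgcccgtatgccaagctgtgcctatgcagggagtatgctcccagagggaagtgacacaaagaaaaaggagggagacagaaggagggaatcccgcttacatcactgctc
Cacnb1, chr11:98022628-98022877, minus strand: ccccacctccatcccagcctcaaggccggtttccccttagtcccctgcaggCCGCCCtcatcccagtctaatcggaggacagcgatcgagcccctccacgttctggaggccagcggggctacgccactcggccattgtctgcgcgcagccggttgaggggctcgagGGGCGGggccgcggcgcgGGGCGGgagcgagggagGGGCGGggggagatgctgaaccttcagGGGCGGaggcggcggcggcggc

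The 300-base Rem2 promoter held 1 GC box and none of the other motifs, and its GC content was 54.7%, against a median of 52.7% over 32851 promoters. Its ratio of observed to expected CpG was 0.228, against a median of 0.384. The Cacnb1 promoter printed above held 5 GC boxes, with a GC content of 73.7% and a CpG ratio of 0.843, and the other Cacnb1 promoter held none, with a CpG ratio of 0.114. The first Cacnb4 promoter held 6 GC boxes and the Rem1 promoter 5. A CRE core was found in the Rem1 promoter, 33 bases after the start site, and in one of the Cacnb2 promoters, before the start site. No promoter of the 6 genes held a full CRE, a TATA box or a CArG box in these windows. Over all promoters of this length, 1.79% held a full CRE, 20.8% a CRE core, 35.7% a GC box, 13.6% a TATA box and 1.63% a CArG box. These matches describe letters in a window and no site.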

How the data were processed

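Per the file headers, the deposited scanner files give each spot's intensity, linear and background-subtracted, from Agilent Feature Extraction 10.7.1.1 (9.5.1.1 in the submitters' processing notes). The value table holds intensity that the authors quantile normalized, per the labels' design text, and served as an alternative. Each array had 62976 spots, 59305 of them not controls. Outlier spots (170 on TTX, 131 on control) were left out, and none was saturated. The share of spots well above background was 52.2% on TTX and 54.2% on control.

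Intensities were quantile normalized, then log2-transformed, and repeat spots of a probe were averaged (Python 3.11.15, numpy 2.4.6). Probes counted as measured if a share of 0.5 or more of their spots passed the software's background test on each array. The brightest such probe stood for its gene. Scanner error is the software's error per spot, carried to the log2 difference. Among 261 probes with replicate spots the pooled SD of a difference was 0.15, and over 5 bins of signal it ran from 0.26 in the dimmest, where Gem lay, to 0.06 in the brightest, where Cacnb3 lay. Alternatives included normexp (limma 3.58.1, R 4.3.3). The steps were tested on simulated data. The rule for names took all 8 members, the genes of each list past 2-fold, up to 3 more by size, and the 3 nearest to Gem. Cacna1c and genes above background on control alone were named beyond it, after their values were seen. Members and lists were chosen with earlier results of these data known.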

Additional observations from a re-analysis of the deposited data

How the results depend on the processing

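Gem and the 4 beta subunits kept their sign under every alternative that gave them a value, and none passed 2-fold. Over these alternatives Gem lay between -0.31 and -0.09, Cacnb1 between -0.54 and -0.39, Cacnb2 between -0.77 and -0.44, Cacnb4 between -0.27 and -0.14 and Cacnb3 between 0.08 and 0.27, where 0.08 came from scaling on the spike-in controls. Gem had no value under the stricter filter on dim probes. Gem, Cacnb1, Cacnb3 and Cacnb4 had 1 measured probe each. Alternatives that change only the choice or filter of probes therefore repeated their main value and were no check of the sign. The Rem2 bound lay between -4.70 and -4.54 except with normexp (-2.53), where the added offset pulls dim spots together by construction. Counts of all genes at least 2-fold lower and higher, 473 and 294, were 301 and 147 under normexp and 1364 and 1063 when dim probes were kept. A 1.5-fold rule gave 1208 and 1072, and a 3-fold rule gave 163 and 95. No paired analysis was possible because each group had 1 array. The dim signals of Gem, Rem1 and Rrad limit what can be said of them, and Rem2 rests on 1 probe.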
